A study of Saccharomyces cerevisiae with 5 samples.

Results

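Sulfate uptake and reduction in Saccharomyces cerevisiae was followed here through 10 genes. They are the sulfate transporters SUL1 and SUL2, the enzymes MET3, MET14, MET16, MET5, MET10 and MET17, and the regulators MET4 and MET28. The genes were picked by their role, with earlier results of these data known. Each of the 10 had exactly 1 probe set assigned to a single gene, out of 5656 genes with such a probe set on the array. Transcript levels were compared between 2 arrays of a Δrsf2 strain and 3 arrays of its isogenic parent, wild-type BY4741, a common haploid laboratory strain, with 1 array for each biological replicate. The Δrsf2 strain lacks YJR127C, also called ZMS1, and both strains grew in 50 ml cultures of YPG, a rich medium with glycerol, and were collected at an A600 of 0.6. The labels also hold text on a timed shift from dextrose to glycerol, which the series design does not mention. Whether these cultures went through such a shift is not settled here. Yeast must respire to grow on glycerol. Both strains also carry the parent's auxotrophic deletions, among them that of MET17, so in neither can sulfide be built into homocysteine by the usual route, and both depend on organic sulfur from the medium. The comparison of the strains addresses the role of RSF2 in growth on glycerol. How the deletion was made, and whether the mutant arrays come from 1 clone, is not given in the sources used here.

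In yeast, sulfate enters the cell through plasma membrane permeases, is activated with ATP, and is reduced stepwise to sulfite and then to sulfide, which is joined to a carbon chain to give homocysteine, the precursor of methionine and cysteine. The genes of this route share a transcriptional activator, Met4, which binds DNA only through partner proteins and is held inactive by a ubiquitin ligase when methionine, S-adenosylmethionine or cysteine is plentiful. Rich medium supplies these compounds, and the route is known for low expression there.

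Signals are linear intensities in arbitrary units, brought to a common trimmed mean of 500 on all arrays. Δrsf2 replicate 1 had been deposited at a trimmed mean of 100.1 and the other 4 arrays at 500.3 to 500.7, so its values were multiplied by 4.99. Every scaled value of this array, also of probe sets near background, carries that factor. The scaled signal of the CreX spike-in control separated the arrays into a high set and a low set. The high set was Δrsf2 replicate 1 (59709) and wild-type replicate 1 (56025). The low set was Δrsf2 replicate 2 (2715) and wild-type replicates 2 (9393) and 3 (3417). The value of Δrsf2 replicate 1 includes the factor of 4.99, so its place in the high set rests on the scaling. For ACT1, the 3′ probe set was brighter than the 5′ one, a sign of RNA integrity and labelling, by 4.91-fold and 1.55-fold in Δrsf2, against 1.69-fold to 2.76-fold in the wild type. Of 10 control probe sets for rRNA, 9 were lower in both Δrsf2 arrays than in every wild-type array, and the part of RNA selection or quality in the results was not tested. RSF2 itself, read first as a check of the labels, had signals of 9.49 and 3.30 in Δrsf2, against 204, 254 and 416 in the wild type, at least 9.90-fold lower at the floor of 28.1 used in the fit. Its limma adjusted p over 4243 genes was 0.1335, against 0.00291 with no floor and 0.9996 with the floor at the 20th percentile. The log2 difference of RSF2 was -3.31 over all arrays, -5.63 with no floor and -1.99 with the floor at the 20th percentile. Both Δrsf2 signals were set to the floor, so leaving out either Δrsf2 array could only return -3.31 again. Of 6 markers of MATa cells, the mating type of this strain, the a-factor genes MFA1 and MFA2 had 1155 to 13184 in Δrsf2 and 1027 to 5140 in the wild type. STE2, BAR1, STE6 and AGA2 had 124 to 482 in Δrsf2 and 92.0 to 325 in the wild type. The α-specific STE3 and SAG1 were not at 0 either, with 126 to 498 in Δrsf2 and 80.3 to 606 in the wild type. URA3, deleted in the parent strain, read at most 8.49 in Δrsf2 and at most 3.40 in the wild type. LEU2, deleted there too, had 207 and 21.9 in Δrsf2, against 11.7 to 30.5 in the wild type. HIS3 had 110 and 682 in Δrsf2, against 310 to 476 in the wild type, so its probe set does not show the parent's deletion.

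None of the sulfate genes passed the test between the strains. With limma, 0 of the 7 members that entered the test had an adjusted p under 0.05 and 0 had an unadjusted p under 0.05. Over all 4243 genes tested the shares were 0% after adjustment and 3.23% (137 genes) before it. The 7 fitted log2 differences ran from -0.80 for MET14 to 0.49 for MET28, 4 of them negative and 3 positive, and their median was -0.27. For all tested genes the median was -0.03, and 52.3% were negative. Each of the 7 members had a limma adjusted p of 0.9996. The other 3 members, SUL1, SUL2 and MET17, were too dim to be tested, with mean log2 signals below the 25th percentile of genes (a signal of 129). With 3 arrays against 2, an exact rank test of a single gene cannot give a two-sided p below 0.2.

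**Figure D1:**
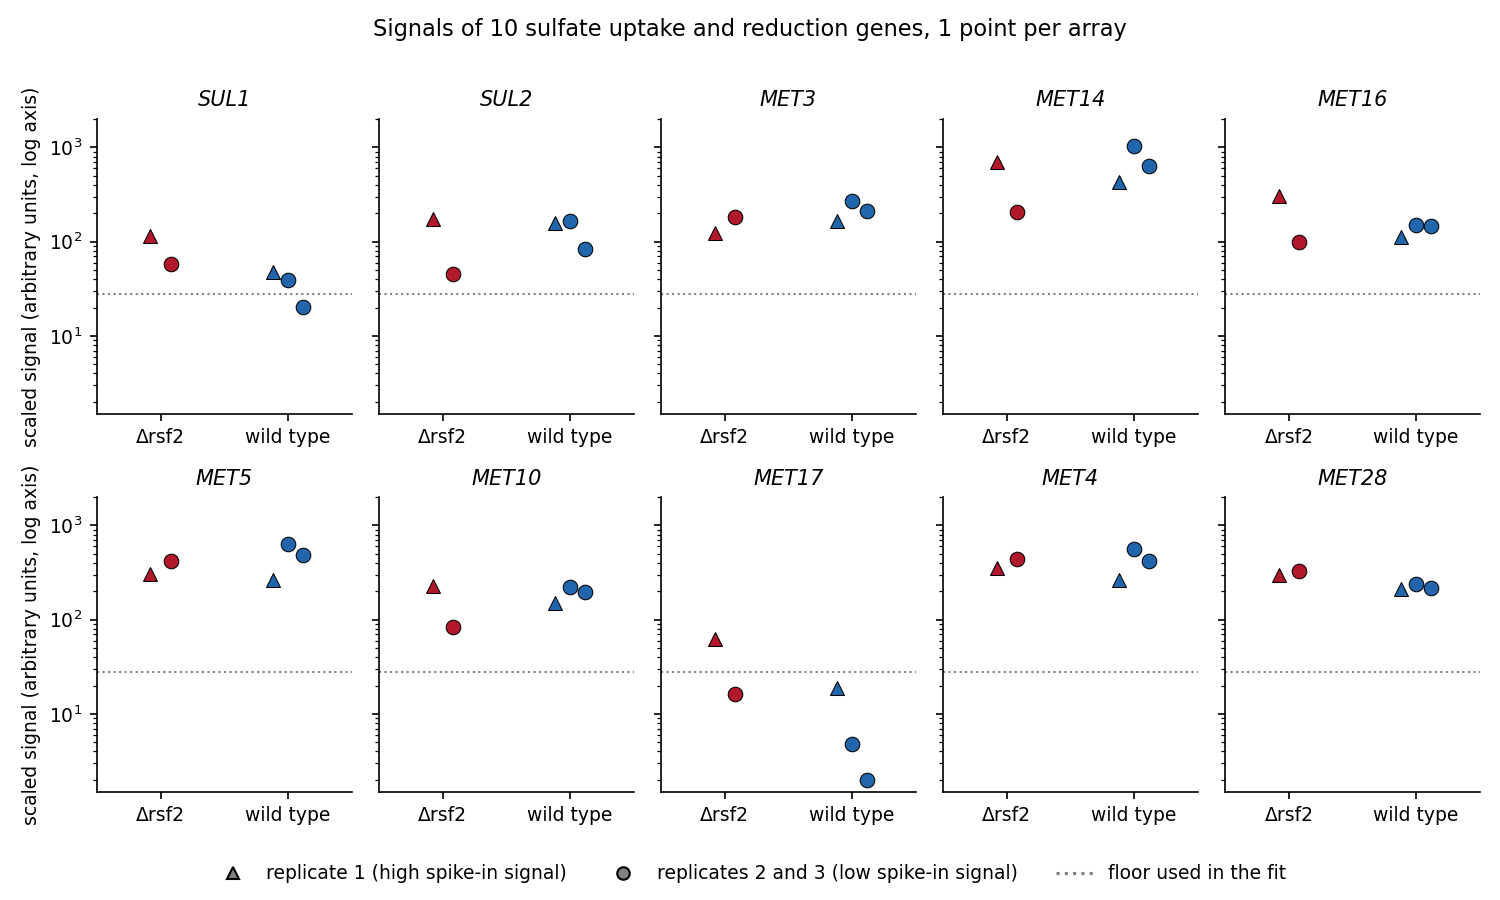
Scaled signal (arbitrary units, log axis) of each sulfate gene in each array, with Δrsf2 at the left and wild type at the right of each panel. Each point is 1 array, triangles are replicate 1 of either strain, and the dotted line is the floor of 28.1. Points of both strains do not overlap for SUL1 and MET28, and MET17 lies under the floor in 4 of 5 arrays.

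Neither of the permeases that open the route was bright enough to be tested. SUL2 (YLR092W), a high-affinity sulfate permease, had signals of 174 and 45.4 in Δrsf2 replicates 1 and 2, against 159, 166 and 83.3 in wild-type replicates 1 to 3. The strains overlapped, because the higher Δrsf2 array lay above and the lower one below every wild-type array. SUL1 (YBR294W), the paralogous permease, had 114 and 58.2 in Δrsf2, against 47.7, 39.7 and 20.4 in the wild type. Both Δrsf2 arrays were thus above each wild-type array, and wild-type replicate 3 lay under the floor. In the fit without a signal filter, SUL1 had a log2 difference of 1.11 ± 0.39 (SE), 2.16-fold higher by value, with an unadjusted p of 0.0362 and a limma adjusted p of 0.996. In that fit 3.24% of 5656 genes were at least 2-fold higher in Δrsf2 with no overlap, and 4.4% had an unadjusted p under 0.05.

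MET17 (YLR303W), which encodes the sulfhydrylase that joins sulfide to O-acetylhomoserine and is deleted in both strains, shows what a probe set reads here without its transcript. It had 62.4 and 16.3 in Δrsf2, against 18.9, 4.80 and 2.00 in the wild type. The highest reading was therefore in Δrsf2 replicate 1, as for SUL1, and among the wild-type arrays MET17 and SUL1 also had the same order. Background differs between probe sets, so MET17 gives no detection limit for SUL1, and the part of array background in the SUL1 difference was not tested.

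Activation of sulfate takes 2 enzymes, and their transcripts were read differently in the mutant arrays. MET3 (YJR010W), ATP sulfurylase, had signals of 122 and 184 in Δrsf2, against 166, 270 and 214 in the wild type. Δrsf2 replicate 1 lay below all wild-type arrays and replicate 2 among them. The fit put the log2 difference at -0.50 ± 0.57 (SE), and its 95% interval ran from -1.75 to 0.76. MET14 (YKL001C), adenylylsulfate kinase, had 694 and 205 in Δrsf2, against 430, 1028 and 639 in the wild type. Here replicate 1 lay among the wild-type arrays and replicate 2 below all of them, the reverse of MET3. MET14 averaged 450 ± 345 (SD, n = 2) in Δrsf2 and 699 ± 303 (SD, n = 3) in the wild type, with a fitted difference of -0.80 ± 0.62 (SE) and a 95% interval of -2.16 to 0.56. Leaving out Δrsf2 replicate 2 gave 0.080, and leaving out replicate 1 gave -1.67.

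Reduction of the activated sulfate starts with MET16 (YPR167C), the reductase that uses thioredoxin to release sulfite. Its signals were 304 and 99.3 in Δrsf2, against 112, 150 and 146 in the wild type. The Δrsf2 arrays lay on either side of all wild-type arrays, which themselves differed by 1.33-fold. The fit put the log2 difference at 0.37 ± 0.62 (SE), with a 95% interval of -0.998 to 1.73, and at -0.44 without Δrsf2 replicate 1.

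Sulfite reductase, which makes sulfide, is built from an α subunit encoded by MET10 and a β subunit encoded by MET5. MET10 (YFR030W) had signals of 228 and 84.6 in Δrsf2, against 150, 221 and 196 in the wild type. MET5 (YJR137C) had 306 and 422 in Δrsf2, against 263, 639 and 484 in the wild type. The transcripts of the pair thus ran in opposite order in the Δrsf2 arrays, with MET10 higher in replicate 1 by 2.69-fold and MET5 higher in replicate 2 by 1.38-fold. MET10 had a fitted log2 difference of -0.43 ± 0.62 (SE; 95% interval -1.77 to 0.92), and 0.29 without Δrsf2 replicate 2. MET5 had one of -0.27 ± 0.57 (SE; 95% interval -1.51 to 0.97), and 0.0092 without wild-type replicate 2. MET5 lies on the same chromosome as RSF2, with 11 annotated genes between them in assembly R64, and MET3 is on that chromosome too, with 119 genes between.

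The regulators were the members that differed least between the mutant arrays. MET4 (YNL103W), the activator, had signals of 358 and 445 in Δrsf2, against 264, 564 and 417 in the wild type. Both Δrsf2 arrays lay inside the wild-type range, and the fit put the log2 difference at 0.012 ± 0.55 (SE; 95% interval -1.19 to 1.22). Its sign turned when Δrsf2 replicate 2 (-0.15) or wild-type replicate 1 (-0.28) was left out, and it also turned in 5 other settings. MET28 (YIR017C), a partner that helps Met4 and Cbf1 bind DNA, had 298 and 327 in Δrsf2, against 213, 238 and 216 in the wild type. It was the only tested member whose strains did not overlap, a feature shared by 6.74% of all tested genes in the higher direction and 8.27% in the lower. MET28 averaged 313 ± 21.1 (SD, n = 2) in Δrsf2 and 223 ± 13.6 (SD, n = 3) in the wild type, 1.40-fold higher by geometric mean. The log2 difference was 0.49 ± 0.55 (SE; 95% interval -0.71 to 1.69), and leaving out each array in turn gave 0.42 to 0.56. In the unscaled deposited values it was -0.67, with all genes shifted by -1.16 in the median.

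No tested member was 2-fold apart without overlap, while 2.76% of all tested genes were at least 2-fold lower and 1.77% at least 2-fold higher in that way. The intervals were wide against this size. The 95% interval for the ratio of Δrsf2 to wild type was 0.224 to 1.48 for MET14 and 0.501 to 3.31 for MET16. A level of MET14 that is 2-fold lower in Δrsf2, or of MET16 that is 2-fold higher, thus lay inside these intervals.

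**Figure D2:**
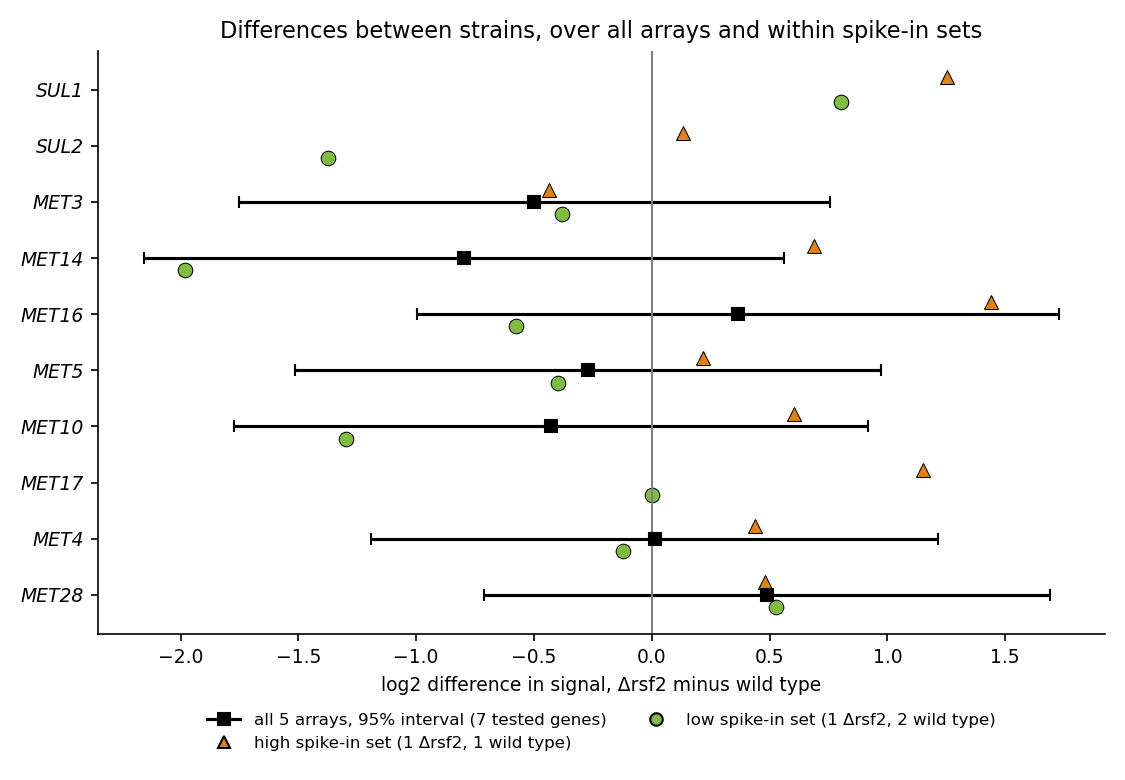
Log2 difference in signal, Δrsf2 minus wild type, for each sulfate gene. Squares with bars are the limma difference over all 5 arrays with its 95% interval for the 7 tested genes, triangles are the difference within the high spike-in set and circles that within the low set. All 7 intervals cross 0, and triangles and circles lie on opposite sides of 0 for MET14, MET16, MET5, MET10, MET4 and SUL2.

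Within the spike-in sets, 5 of the 7 tested members had differences of opposite sign and 2 kept theirs. In the high set, which holds 1 array of each strain and allows no test, 6 of the 7 tested members were higher in Δrsf2, with a median log2 difference of 0.48, where 60.2% of all tested genes were higher and their median was 0.21. In the low set, with 1 Δrsf2 and 2 wild-type arrays, 6 of the 7 were lower, with a median of -0.40, where 55.8% of all tested genes were lower and their median was -0.11. The sign was opposite between the sets for MET14, MET16, MET5, MET10 and MET4, and for 56.1% of all tested genes. All 5 were higher in the high set and lower in the low set, as were 36% of all tested genes. In the low set 2 members, MET14 and MET10, were at least 2-fold lower, against 12.6% of all tested genes. MET14 was at 0.69 in the high set and -1.98 in the low set, MET16 at 1.44 and -0.57, and MET10 at 0.60 and -1.30. SUL2, which was not tested, was at 0.13 and -1.38. MET3, at -0.44 and -0.38, and MET28, at 0.48 and 0.53, kept their sign in both sets, as did the untested SUL1 at 1.25 and 0.80.

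In the low set alone, MET14 passed the limma test with an adjusted p of 0.00315, where 10.4% of all genes (442) passed. That fit assumes that the lone Δrsf2 array varies like the wild-type ones, and the other 6 tested members did not pass in it. Over the alternatives that gave a test, the adjusted p of MET14 ran from 0.00315 to 1. Over all 5 arrays, blocked by spike-in set, the MET14 difference was -0.84 with an adjusted p of 0.84.

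Between the Δrsf2 arrays, some members read higher in replicate 1 and others in replicate 2. MET14, MET16 and MET10 were higher in replicate 1 than in replicate 2 by 3.38-fold, 3.06-fold and 2.69-fold. Of the untested members, SUL2 was higher there by 3.84-fold, SUL1 by 1.96-fold and MET17 by 3.83-fold. MET17 is deleted in both strains, its replicate 2 signal lay under the floor, and the part of array background in these ratios was not tested. MET3, MET5, MET4 and MET28 ran the other way by 1.51-fold, 1.38-fold, 1.25-fold and 1.10-fold. So 3 of 7 tested members were at least 2-fold higher in replicate 1 and 0 in replicate 2, against 17% and 22.6% of all tested genes. In the wild type, 3 of the 7 (MET14, MET5 and MET4) had a highest array at least 2-fold above the lowest, against 44.2% of all tested genes. The median SD of log2 signals over the 7 members came to 0.42 for Δrsf2 and 0.35 for the wild type. Over all tested genes it came to 0.56 for Δrsf2 and 0.48 for the wild type.

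**Figure D3:**
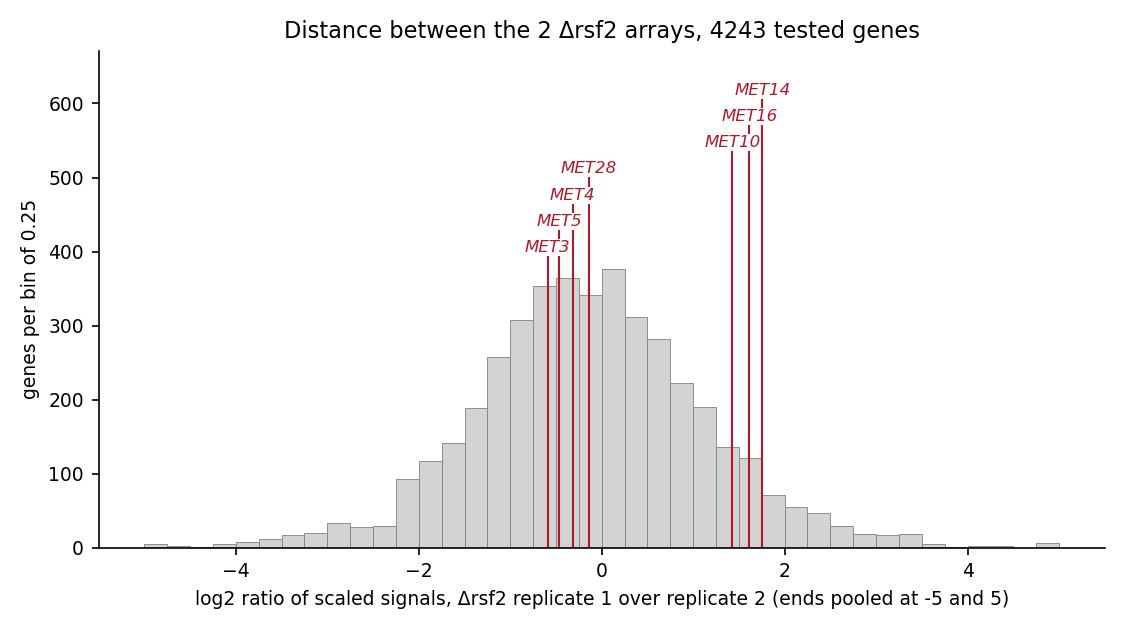
Histogram of the log2 ratio of scaled signals, Δrsf2 replicate 1 over replicate 2, for 4243 tested genes in bins of 0.25, with a red line for each of the 7 tested sulfate genes. MET10, MET16 and MET14 lie on the right, at ratios of 2.69 to 3.38, and MET3, MET5, MET4 and MET28 just left of 0.

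Relative to the wild-type mean, the median of the 7 members was 0.080 in Δrsf2 replicate 1 and -0.20 in replicate 2, against -0.36, 0.35 and 0.071 in wild-type replicates 1 to 3. Both Δrsf2 values thus lay inside the wild-type range. For all tested genes these medians were -0.079 and 0.020 in Δrsf2, against -0.33, 0.082 and 0.24 in the wild type. Wild-type replicate 1 was the lowest array for both. Without it the member median of the fitted differences was -0.59, against -0.27 over all arrays. For all tested genes the median of the fitted differences moved too, to -0.20 without it, against -0.03 over all arrays.

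The rest of the sulfur pathway was read from 43 further genes, of which 37 were bright enough to be tested. None had a limma adjusted p under 0.05, 5 had an unadjusted p under 0.05 on the lower side and 1 on the higher side, and their median log2 difference was -0.14. Of all tested genes, 2.29% had an unadjusted p under 0.05 on the lower side and 0.943% on the higher. These 6 genes were also at least 2-fold apart without overlap, as were 2.76% of all tested genes on the lower side and 1.77% on the higher. The lists were chosen with earlier results of these data known, so the shares over all genes do not test them.

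Among steps beside the main route, SOA1, a permease for sulfate, sulfite and other inorganic sulfur compounds, had signals of 223 and 455 in Δrsf2, against 112, 128 and 145 in the wild type. Its log2 difference was 1.32 ± 0.58 (SE, unadjusted p = 0.0441), and limma's adjusted p was 0.9996. It was at 0.80 without Δrsf2 replicate 2 and at 1.84 without replicate 1. Within the spike-in sets SOA1 was at 0.99 (high) and 1.74 (low). The other 3 tested genes of this list were positive by value too: SSU1, the sulfite exporter, at 0.30, MET1, which makes the sirohaem cofactor of sulfite reductase, at 0.21, and MET22, the phosphatase that clears the by-product of the Met16 step, at 0.13. SSU1 was split between the mutant arrays, with 1059 and 3192 in Δrsf2, against 1321 to 1633 in the wild type. In the thioredoxin system, which feeds electrons to Met16, TRR1 (thioredoxin reductase) had 1074 and 778 in Δrsf2, against 1916, 1684 and 1493 in the wild type, a log2 difference of -0.89 ± 0.42 (SE) with a limma adjusted p of 0.9996. The thioredoxins TRX1 and TRX2 were at -0.49 and -0.17, with strains that overlapped.

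In the list for the methionine and S-adenosylmethionine cycle, 9 of 14 genes lay lower by value, as did 52.3% of all tested genes. The median log2 difference of the list was -0.10. SAM1, an S-adenosylmethionine synthetase, had signals of 132 and 22.7 in Δrsf2, against 338, 222 and 222 in the wild type, and its value in replicate 2 lay under the floor. ADO1, adenosine kinase, was at -1.05 ± 0.45 (SE) and SAM4, a homocysteine methyltransferase, at -0.71 ± 0.50. CYS3, cystathionine gamma-lyase, which makes cysteine, had 381 and 89.3 in Δrsf2, against 1259, 599 and 880 in the wild type, a log2 difference of -2.24 ± 0.66 (SE, unadjusted p = 0.00542). SAM1 and CYS3 were both lower in each Δrsf2 array than in every wild-type array, and both were lower still in replicate 2, the array in which MET14, MET16 and MET10 read low. Over all 5 arrays limma gave both an adjusted p of 0.9996. Without Δrsf2 replicate 1, where 1.3% of all genes passed, SAM1 was at -3.18 (adjusted p = 0.016) and CYS3 at -3.29 (0.0153), and without replicate 2 they were at -0.95 (0.76) and -1.20 (0.401). Each of these fits has 1 Δrsf2 array, as does the low set, and assumes that it varies like the wild-type ones. Within the low set SAM1 was at -2.98 and CYS3 at -3.02, and within the high set they were at -1.36 and -1.72. The low-set value of SAM1 uses a replicate 2 signal set to the floor. CYS4, cystathionine beta-synthase, was at -0.42 and GSH1, the first enzyme of glutathione synthesis, at 0.70, and 3 of the 6 genes for cysteine and glutathione were lower by value (median -0.10).

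**Figure D4:**
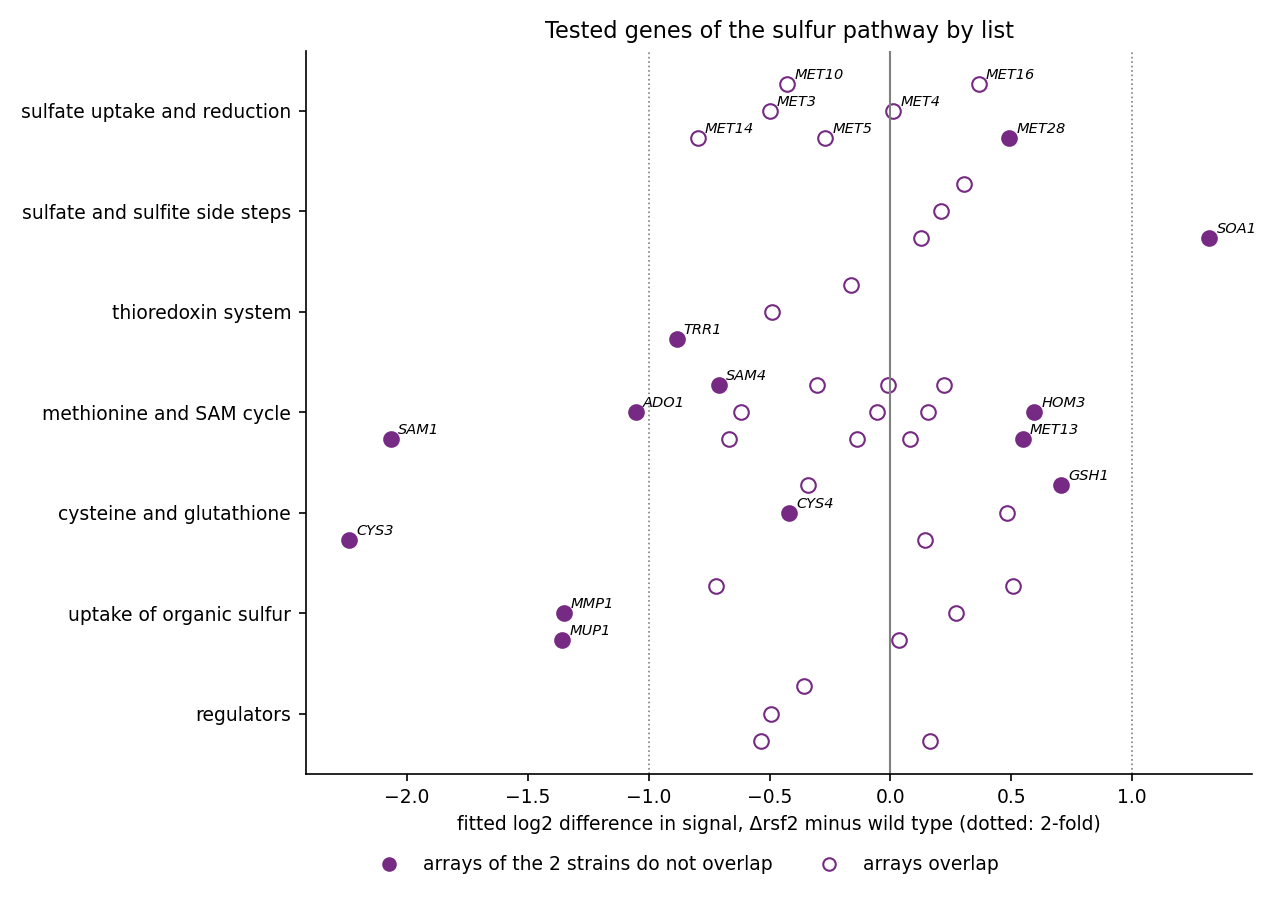
Fitted log2 difference, Δrsf2 minus wild type, of each tested gene of the sulfur pathway, by list. Filled points are genes whose arrays do not overlap between the strains and dotted lines mark 2-fold. The sulfate genes lie between -0.80 and 0.49, and 6 genes of other lists, CYS3, SAM1, MUP1, MMP1, ADO1 and SOA1, lie beyond 2-fold.

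Uptake of organic sulfur, on which both strains depend, included 2 differences beyond 2-fold. MUP1, the high-affinity methionine permease, had 584 and 263 in Δrsf2, against 745, 1019 and 1336 in the wild type. MMP1, the S-methylmethionine permease, had 239 and 202 in Δrsf2, against 357, 591 and 841 in the wild type. Neither gene overlapped between the strains, and their log2 differences were -1.36 ± 0.51 and -1.35 ± 0.56 (SE), with limma adjusted p-values of 0.9996. Within the low set, with 1 Δrsf2 array, they were at -2.15 and -1.80, and in the high set they were at -0.35 and -0.58. Leaving out Δrsf2 replicate 2 put MUP1 at -0.78 and leaving out replicate 1 put it at -1.93. AGP1, a broad-range amino acid permease, was at -0.72 with strains that overlapped, and 3 of the 6 tested genes of the list were lower by value (median -0.34). Of 4 tested regulators, 3 were lower by value, with a median of -0.43: CBF1, a DNA-binding partner of Met4, at -0.49, MET31, another partner, at -0.54, and MET30, a subunit of the ubiquitin ligase that restrains Met4, at -0.36. MET31 was placed like MET16, its Δrsf2 arrays on either side of all wild-type arrays, with 532 and 156 in Δrsf2, against 392 to 473 in the wild type. Within the low set AGP1 was at -1.56 and MET31 at -1.46, and in the high set they were at 0.34 and 0.43. Of the 37 further genes, 9 were at least 2-fold higher in Δrsf2 replicate 1 than in replicate 2 and 4 were at least 2-fold higher in replicate 2. Over all tested genes these shares were 17% and 22.6%.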

How the data were processed

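The authors deposited 1 linear signal intensity per probe set and array, and the submitters' processing notes name MAS5 as the tool. The MAS5 version, detection calls and genome build are not given in the sources used here, so no coordinates are printed. Arrays were scaled to a 2% trimmed mean of 500. Values were floored at the 10th percentile of single-gene probe sets (28.1), and log2 was taken. Of 9335 probe sets, 60 were controls, 6504 had 1 gene, 328 several and 2443 no listed gene. All 6504 matched the gene table of assembly R64, used for names and neighbours. For 315 genes with several probe sets the brightest was used. Genes under the 25th percentile of mean log2 signal were left out, except RSF2, which left 4243 of 5656.

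Strains were compared with limma 3.58.1 (lmFit, eBayes with trend, Benjamini-Hochberg) in R 4.3.3 over all 5 arrays, with strain as the only term. The fit was also run on simulated arrays with independent noise, which copy neither the rescaled array nor the spike-in sets. Intervals are 95%. SDs are of scaled signals and SEs of fitted log2 differences. The number of arrays limits precision, and p-values measure the spread between samples that the titles call biological replicates. Named genes were the 10 members, RSF2, and the 3 of smallest p in each further list plus any 2-fold apart without overlap. Members and lists were chosen with earlier results of these data known. The label text on a timed shift from dextrose to glycerol was not used. Alternatives covered scaling, floor, filter, probe sets, weights, blocks and arrays left out.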

Additional observations from a re-analysis of the deposited data

How the results depend on the processing

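Results were recomputed under 20 alternative settings, and 80 of 98 summary values were kept. A count was kept if it stayed at 0, its value in the main fit. The member median was kept if it moved by less than 0.31, its pooled SD over arrays. Of 137 recomputed differences of the 7 tested members, 130 came with a test, and 1 of these passed, MET14 within the low spike-in set. The number of members with an adjusted p under 0.05 was 0 in the other settings with a test. The number of all genes that passed was 1 with no floor, 1 with the filter at the 40th percentile and 442 within the low set, and 0 to 60 when an array was left out, with 55 without Δrsf2 replicate 1 and 60 without Δrsf2 replicate 2. Members at least 2-fold lower without overlap numbered 2 in the values as deposited and 2 within the low set, against 1004 and 532 of all 4243 tested genes. When an array was left out they numbered 0 to 2, against 124 to 505 of all tested genes. Members at least 2-fold higher numbered 1 with no signal filter (SUL1) and 1 within the high set, against 183 of 5656 and 731 of 4243 genes. When an array was left out they numbered 0 to 1, against 74 to 443 of all tested genes. The high set holds 1 array of each strain, so no gene can overlap in it. The member median was -1.43 in the values as deposited, -0.62 with array weights and 0.48 within the high set, and -0.59 to 0.080 when an array was left out. All genes 2-fold apart without overlap were lower in 60.9% of cases (117 lower, 75 higher), against 72.1% after quantile normalisation (165 and 64), 71.8% with arrays centred on their medians (155 and 61) and 100% as deposited (1004 and 0). As deposited, 1 array is on another scale, and the median of all genes moved by -1.16.

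The sign turned for 14 of the 130 member values with a test, 7 of them of MET4. MET4 was at -0.011 after quantile normalisation, -0.0495 with centred arrays, -1.15 as deposited, -0.37 with array weights and -0.12 within the low set. Other signs turned as deposited were MET16 at -0.80, MET28 at -0.67, SSU1 at -0.86, MET1 at -0.95 and GSH1 at -0.46. Within the low set they were MET16 at -0.57, MET1 at -0.083, TRX1 at 0.31 and TRX2 at 0.29. With arrays left out in turn, ranges that crossed 0 were -1.67 to 0.080 for MET14, -0.44 to 1.17 for MET16, -0.63 to 0.0092 for MET5, -1.14 to 0.29 for MET10, -0.28 to 0.27 for MET4, -0.49 to 1.10 for SSU1, -0.11 to 0.49 for MET1, -0.46 to 0.13 for TRX2 and -1.42 to 0.35 for MET31. The cause of these moves was not tested. With the replicate number as a block, 2 genes passed over all genes and 0 members, with a member median of -0.19. Deviations of same-numbered arrays from their strain means correlated at 0.27 for number 1 and -0.09 for number 2. The deviations of the 2 Δrsf2 arrays mirror each other, so these values cannot decide whether the numbers pair the arrays. The main fit did not pair them. Dim probe sets limit SUL1, SUL2 and MET17, for which no detection call was used.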
